A study of Mus musculus with 6 samples.

Results

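The genes described here are 10 rows of a mouse expression table that were chosen by symbol, namely the epidermal growth factor (EGF) receptor family members Egfr, Erbb2 and Erbb3, the ligand genes Areg, Ereg, Btc, Hbegf, Tgfa and Nrg1, and the feedback inhibitor gene Errfi1. All 10 were found among the 25655 genes of the table, and all 10 passed the filter on low counts that left 13941 genes to test. The cells were Comma-Dβ, a mouse line of mammary epithelium, used at passage 29. The siID4 arm (3 libraries) was transfected with a siGENOME SMARTpool against mouse Id4 and the NT arm (3 libraries) with an ON-TARGETplus non-targeting control pool. The 2 pools also come from different product lines, a difference that cannot be told apart from the knockdown. Both arms received 20 nM siRNA, were harvested 48 hr later and, per the labels, grew in medium with 2% serum, insulin and 5 ng/mL of mouse EGF, so an outside ligand of EGFR was supplied to every library. The series asks how ID4 knockdown changes expression in these cells.

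EGF family ligands are made as membrane-anchored precursors that proteases release from the cell surface. AREG, EREG, BTC, HBEGF, TGFA, EPGN and EGF bind EGFR, some of them also ERBB4, whereas neuregulins bind ERBB3 and ERBB4. ERBB2 has no known ligand of its own and signals as the partner of the other receptors, and bound receptors drive the RAS-ERK and PI3K-AKT pathways. In the mammary gland AREG carries the signal of oestrogen for duct growth, and ERBB2 is known as an oncogene of breast tumours.

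In siID4 cells the mRNA of 3 EGFR ligands, Areg, Ereg and Tgfa, and of the receptor gene Erbb2 was lower than in NT cells, while the estimated difference in Egfr was close to 0. Areg stood at 67.2% of its NT mean, Ereg at 76.6%, Tgfa at 79.6% and Erbb2 at 86.5%. Of the 10 genes 4 fell and 0 rose in edgeR's quasi-likelihood test at an adjusted p under 0.05, and at an unadjusted p under 0.05 the same counts of 4 and 0 were found. DESeq2 gave 4 and 0, and limma-voom 3 and 0. Over all genes tested 9.55% were called at the adjusted p, 4.93% as lower and 4.62% as higher. The share of all genes at an unadjusted p under 0.05 was not counted. Unadjusted counts given here and below therefore have no background to be read against. The median log2 fold change of the 10 genes was -0.16, beside 0.00079 over all genes tested. Levels are given as CPM, counts scaled to a total of 1000000 per library with TMM factors. The CPM values of the arms did not overlap for those 4 genes, as for 30.9% of all genes tested. With the replicate number as a block, 5 of the 10 fell and 1 rose, where 18.3% of all genes were called lower and 17.9% higher.

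The calls depended on which libraries were in the fit, as did those over all genes. Leaving out siID4 replicate 2 or NT replicate 2 left 0 of the 10 called by edgeR, where 445 and 631 of all genes were still called in place of 1331. At an unadjusted p under 0.05, for which no share over all genes was counted, 4 were lower in each case (and 1 higher without NT replicate 2). Without siID4 replicate 1 only Erbb2 was called, and without siID4 replicate 3 or NT replicate 3 Areg and Ereg were, whereas without NT replicate 1 the same 4 genes passed. None of the 4 changed direction in any of these fits. Without siID4 replicate 2 the log2 fold change was -0.57 for Areg, -0.41 for Ereg, -0.29 for Tgfa and -0.21 for Erbb2, and without NT replicate 2 it was -0.54, -0.29, -0.33 and -0.21 in the same order.

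**Figure D1:**
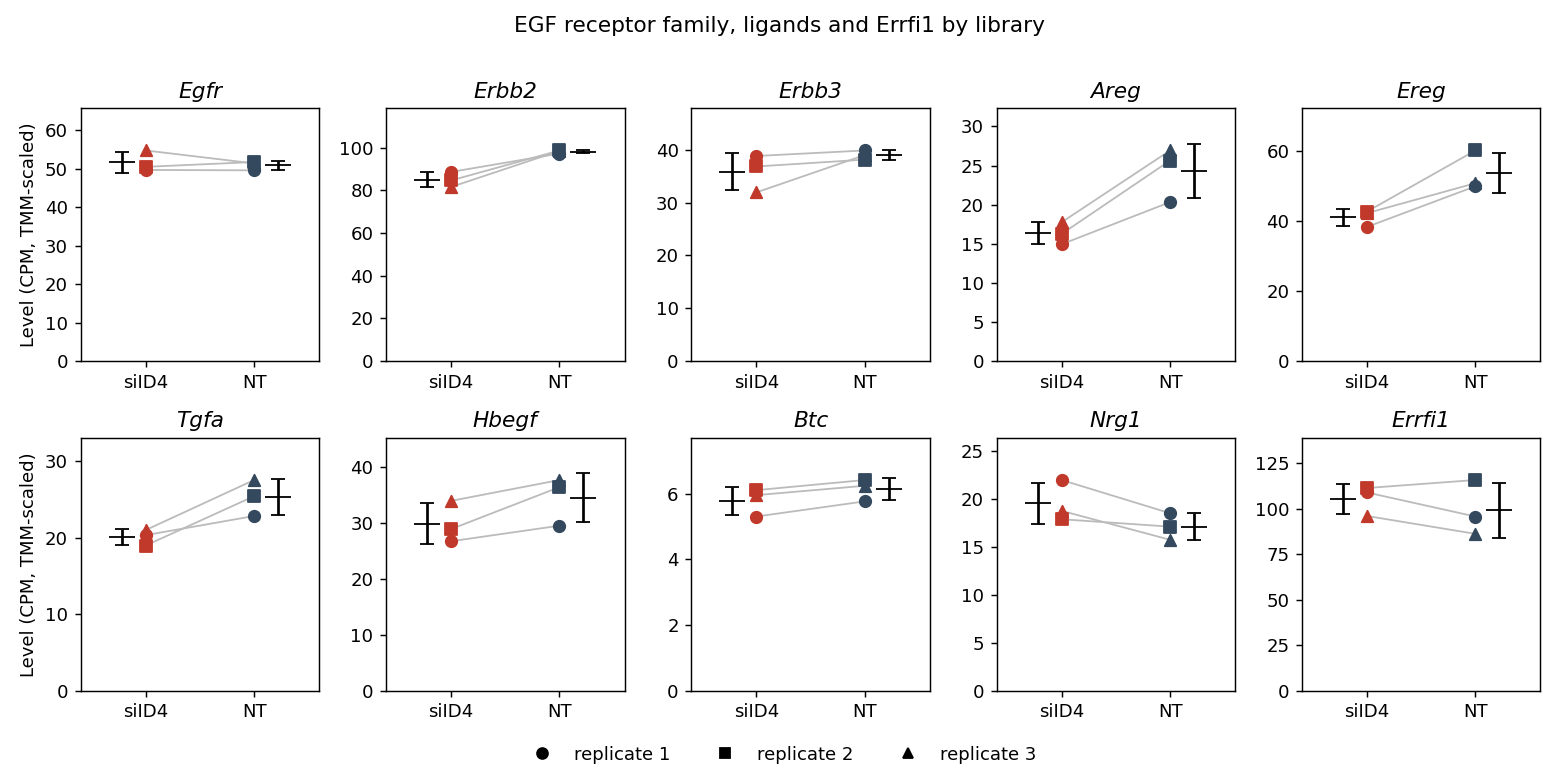
Level of each of the 10 genes (CPM, TMM-scaled, axis from 0) in the 3 siID4 libraries (red, left) and the 3 NT libraries (dark, right), with mean ± SD as black bars and a grey line joining libraries of the same replicate number. For Erbb2, Areg, Ereg and Tgfa all siID4 points lie below all NT points, while the other 6 panels overlap.

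Total counts per library were between 19.2 and 23.1 M. Id4 itself was at 59.4, 62.2 and 48.2 CPM in siID4 libraries, against 135, 114 and 118 CPM in NT libraries. Defining epithelial markers were present, with Krt5, Krt14, Epcam and Cdh1 among 8 measured, whose summed level was 2285 to 2647 CPM in siID4 libraries and 2483 to 2818 CPM in NT libraries. Of these 8, Cdh1 (log2 fold change 0.24, adjusted p = 0.0234) and Trp63 (0.27, 0.0279) rose and Epcam fell (-0.25, 0.0211). Of 9 fibroblast markers in the table, 3 rose (Col1a1, Col1a2 and Pdgfrb), 1 fell (Pdgfra, -0.62, 0.0257), 4 did not pass and 1 was too low to test. Over all genes tested 4.62% were called higher and 4.93% lower. None of the 9 was at 0 in all libraries. Their summed level was 4439 to 5111 CPM in siID4 libraries and 3155 to 3728 CPM in NT libraries. The collagen genes had the highest means in it, Col1a1 (1817 CPM in siID4, 1171 CPM in NT), Col1a2 (1420, 1074) and Col3a1 (1141, 769). The part of either marker list in the results on the EGF family was not tested. Endothelial markers summed to at most 1.90 CPM in siID4 and 1.06 CPM in NT libraries, leukocyte markers to 2.63 and 2.51 CPM, and adipocyte markers to 0.408 and 0.220 CPM, with Plin1 at 0 counts throughout. In bulk RNA, fewer cells of a type and less mRNA per cell cannot be told apart.

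Among the receptors, Erbb2 fell and Egfr and Erbb3 did not pass. Erbb2 (ENSMUSG00000062312, chromosome 11, 98412470 to 98437716, plus strand of GRCm38, protein-coding) was at 88.6, 84.6 and 81.5 CPM in siID4 libraries and at 97.2, 98.6 and 98.5 CPM in NT libraries. All siID4 libraries were below all NT libraries. The means were 84.9 ± 3.53 and 98.1 ± 0.777 CPM (SD, n = 3 each, exact two-sided permutation p = 0.1, the smallest that 3 against 3 libraries allow). The log2 fold change was -0.21 (SE 0.05, adjusted p = 0.0285). Within replicate numbers 1, 2 and 3 the log2 differences were -0.13, -0.22 and -0.27. Erbb2 kept its call in 2 of the 6 fits that left out a library, the highest adjusted p being 0.127. Mien1, on the opposite strand, overlaps the annotated span of Erbb2. The log2 fold change of Mien1 was -0.0080 (adjusted p = 0.962), and the counting is not stated to use strand.

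Egfr (ENSMUSG00000020122, chromosome 11, 16752203 to 16918158, plus strand), the receptor of all 3 ligands that fell, was at 49.7, 50.5 and 54.8 CPM in siID4 libraries, against 49.6, 51.8 and 51.4 CPM in NT libraries. These ranges overlap. Its log2 fold change was 0.02 with a 95% confidence interval of -0.12 to 0.16 (adjusted p = 0.874), and its sign turned without siID4 replicate 3 (-0.023). The antisense gene Egfros in its span held at most 81 counts in a library. Erbb3 (ENSMUSG00000018166, chromosome 10, 128567523 to 128589652, minus strand), the kinase-poor receptor of neuregulins, was at 38.8, 36.8 and 31.9 CPM in siID4 libraries and 39.9, 38.1 and 39.0 CPM in NT libraries. siID4 replicate 1 lay within the NT range and the other two siID4 libraries below it. The log2 fold change was -0.12 (interval -0.30 to 0.06, adjusted p = 0.391). Erbb4, the remaining receptor of the family, held 13, 7 and 4 counts in siID4 libraries and 3, 6 and 2 counts in NT libraries and was too low to test.

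Areg showed the lowest log2 fold change of the 10 genes. Areg (ENSMUSG00000029378, chromosome 5, 91139599 to 91148432, plus strand), which encodes amphiregulin, was at 14.9, 16.3 and 17.8 CPM in siID4 libraries and 20.3, 25.6 and 26.9 CPM in NT libraries. The highest siID4 library was below the lowest NT library, and NT replicate 1 was the lowest of its arm. The means were 16.3 ± 1.41 and 24.3 ± 3.50 CPM (SD, n = 3 each, exact two-sided permutation p = 0.1), and the log2 fold change was -0.58 (SE 0.12, adjusted p = 0.0168). The differences within replicate numbers were -0.43, -0.64 and -0.59 on the log2 scale. Areg was called in 3 of the 6 fits that left out a library, with adjusted p from 0.0040 to 0.0890.

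Ereg (ENSMUSG00000029377, chromosome 5, 91074622 to 91093646, plus strand) encodes epiregulin, a ligand of EGFR and ERBB4. Its level was 38.3, 42.7 and 42.2 CPM in siID4 libraries, against 49.9, 60.1 and 50.8 CPM in NT libraries. The arms were apart, and NT replicate 2 stood above the other NT libraries. The means were 41.1 ± 2.41 and 53.6 ± 5.66 CPM (SD, n = 3 each, exact two-sided permutation p = 0.1), and the log2 fold change was -0.38 (SE 0.08, adjusted p = 0.0234). Without NT replicate 2 the log2 fold change was -0.29 (adjusted p = 0.0795), and Ereg was called in 3 of the 6 fits that left out a library.

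Tgfa (ENSMUSG00000029999, chromosome 6, 86195223 to 86275719, plus strand) encodes transforming growth factor alpha, an EGFR ligand made by many epithelia. It was at 20.3, 19.0 and 21.0 CPM in siID4 libraries and 22.8, 25.4 and 27.5 CPM in NT libraries. All siID4 libraries were lower, NT replicate 1 being the nearest to them. The means were 20.1 ± 1.03 and 25.3 ± 2.36 CPM (SD, n = 3 each, exact two-sided permutation p = 0.1), and the log2 fold change was -0.33 (SE 0.09, adjusted p = 0.0469). Of the 4 called genes it lay nearest to the threshold. Scaling by library totals in place of TMM (adjusted p = 0.0610) and limma-voom (0.0518) each ended its call, and 1 of the 6 fits that left out a library kept it (highest adjusted p 0.195).

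The windows before the starts of these called genes are shown because their mRNA was lower together. RefSeq's table on GRCm38.p6 held windows from 250 bases before to 50 after the gene start for 6 of the 10 genes, and not for Erbb3, Ereg, Hbegf and Nrg1. The bases before the annotated start are printed 5′ to 3′, plus strand, at chr5:91139349-91139598 for Areg, chr6:86194972-86195221 for Tgfa and chr11:98412234-98412469 for Erbb2. Capitals mark CANNTG, the E-box that basic helix-loop-helix proteins bind, and TGACGTCA, the cAMP response element.
Areg: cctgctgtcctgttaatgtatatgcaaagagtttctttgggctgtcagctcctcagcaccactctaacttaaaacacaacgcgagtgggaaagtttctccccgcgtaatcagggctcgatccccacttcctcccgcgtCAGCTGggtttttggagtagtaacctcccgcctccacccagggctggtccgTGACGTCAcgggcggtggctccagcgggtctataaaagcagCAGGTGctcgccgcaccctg
Tgfa: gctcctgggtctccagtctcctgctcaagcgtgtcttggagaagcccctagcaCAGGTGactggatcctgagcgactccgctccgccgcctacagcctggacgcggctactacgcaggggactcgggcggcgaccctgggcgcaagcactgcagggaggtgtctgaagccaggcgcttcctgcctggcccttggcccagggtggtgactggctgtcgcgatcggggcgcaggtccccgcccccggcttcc
Erbb2: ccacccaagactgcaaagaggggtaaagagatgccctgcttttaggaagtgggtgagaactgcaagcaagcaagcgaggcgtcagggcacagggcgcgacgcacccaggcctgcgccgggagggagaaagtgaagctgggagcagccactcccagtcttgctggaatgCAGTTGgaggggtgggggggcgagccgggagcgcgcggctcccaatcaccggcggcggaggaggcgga

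Areg held 2 E-boxes, of which 1 was CAGCTG, starting 112 bases before the gene start, and its TGACGTCA began 61 bases before the start. Tgfa and Erbb2 held 1 E-box each and no TGACGTCA. Both motifs read the same on either strand, do not overlap each other here, and CAGCTG is itself an E-box. Of 32851 RefSeq windows of 300 bases, 72.3% held CANNTG, 16.3% CAGCTG and 1.79% TGACGTCA. Among the members that did not pass, Btc held 4 E-boxes with 1 CAGCTG, Egfr held none, and Errfi1, with windows at 2 starts, held 1 E-box at one and TGACGTCA at the other. The motif TGANTCA, which takes any base at N and so is broader than the site of AP-1 factors, was in 7.81% of all windows and in none of these. These matches describe the letters of the windows only.

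Hbegf and Btc, further EGFR ligands, did not pass. Hbegf (ENSMUSG00000024486, chromosome 18, 36504927 to 36515805, minus strand), heparin-binding EGF-like growth factor, was at 26.7, 28.8 and 33.9 CPM in siID4 libraries and 29.5, 36.3 and 37.6 CPM in NT libraries. The arms overlap, but within each replicate number the siID4 library was lower, by log2 differences of -0.14, -0.33 and -0.15. The log2 fold change was -0.21 (interval -0.47 to 0.05, adjusted p = 0.295), and with the replicate block the adjusted p was 0.00402. Btc (ENSMUSG00000082361, chromosome 5, 91357261 to 91402994, minus strand), betacellulin, was the member with the lowest level, at 5.31, 6.11 and 5.96 CPM in siID4 libraries and 5.77, 6.42 and 6.25 CPM in NT libraries. At 115 to 142 counts a library its log2 fold change was -0.09 (interval -0.35 to 0.18, adjusted p = 0.709).

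Nrg1 (ENSMUSG00000062991, chromosome 8, 31814551 to 32884029, minus strand), neuregulin 1, the ligand gene for ERBB3 and ERBB4, did not pass and had a fold change of positive sign. It was at 21.9, 17.8 and 18.7 CPM in siID4 libraries, against 18.5, 17.1 and 15.7 CPM in NT libraries. The ranges overlap, while each siID4 library was above the NT library of its number, by 0.24, 0.06 and 0.25 on the log2 scale. The log2 fold change was 0.19 (interval -0.04 to 0.42, adjusted p = 0.282), and with the replicate block the adjusted p was 0.0212.

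Errfi1 (ENSMUSG00000028967, chromosome 4, 150853919 to 150868892, plus strand) encodes MIG6, an inhibitor that binds active EGFR and ERBB2 and is itself induced by EGFR signalling. The level of Errfi1 was 109, 111 and 95.9 CPM in siID4 libraries and 95.6, 116 and 86.1 CPM in NT libraries. The NT libraries spanned the siID4 libraries, and replicate 3 was the lowest in both arms. The log2 fold change was 0.09 (interval -0.15 to 0.33, adjusted p = 0.660).

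**Figure D2:**
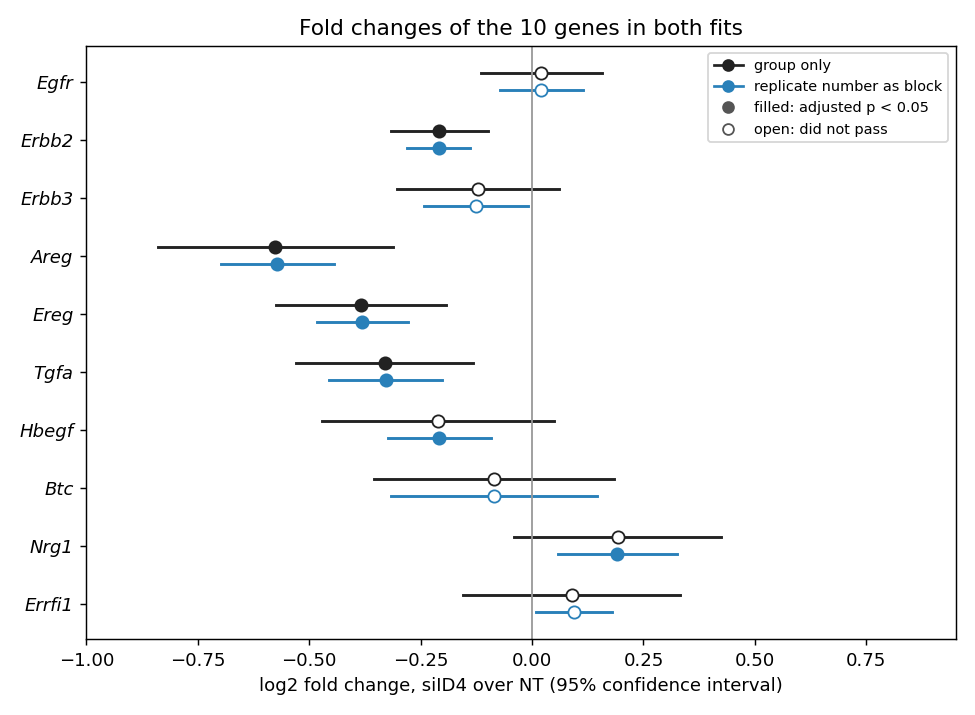
Log2 fold change of siID4 over NT with its 95% confidence interval for the 10 genes, from the fit with group only (black) and the fit with the replicate number as a block (blue), with filled points for an adjusted p under 0.05. The point estimates of both fits nearly coincide, and Hbegf and Nrg1 passed with the block only.

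Set out per length, as CPM per kilobase of the authors' gene length, the inhibitor stood above its receptors and the receptor partner above EGFR. In siID4 cells the mean levels per length ran from Errfi1 (35.1 CPM per kb) through Erbb2 (18.2), Areg (13.6), Hbegf (12.6), Ereg (9.93), Nrg1 (9.27), Egfr (8.09), Erbb3 (5.96) and Tgfa (5.35) to Btc (2.02). In NT cells they ran from Errfi1 (33.0 CPM per kb) through Erbb2 (21.1), Areg (20.3), Hbegf (14.5), Ereg (13.0), Nrg1 (8.12), Egfr (7.97), Tgfa (6.73) and Erbb3 (6.48) to Btc (2.14). The order differed between the arms in Tgfa and Erbb3 alone, whose libraries overlapped in both arms. In siID4 cells the Areg libraries (12.5 to 14.8 CPM per kb) lay below those of Erbb2 (17.5 to 19.0) and overlapped those of Hbegf (11.2 to 14.3), while in NT cells Areg overlapped Erbb2. Nrg1 and Egfr overlapped in both arms, as did Ereg and Nrg1 in siID4 cells and Hbegf and Ereg in NT cells.

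**Figure D3:**
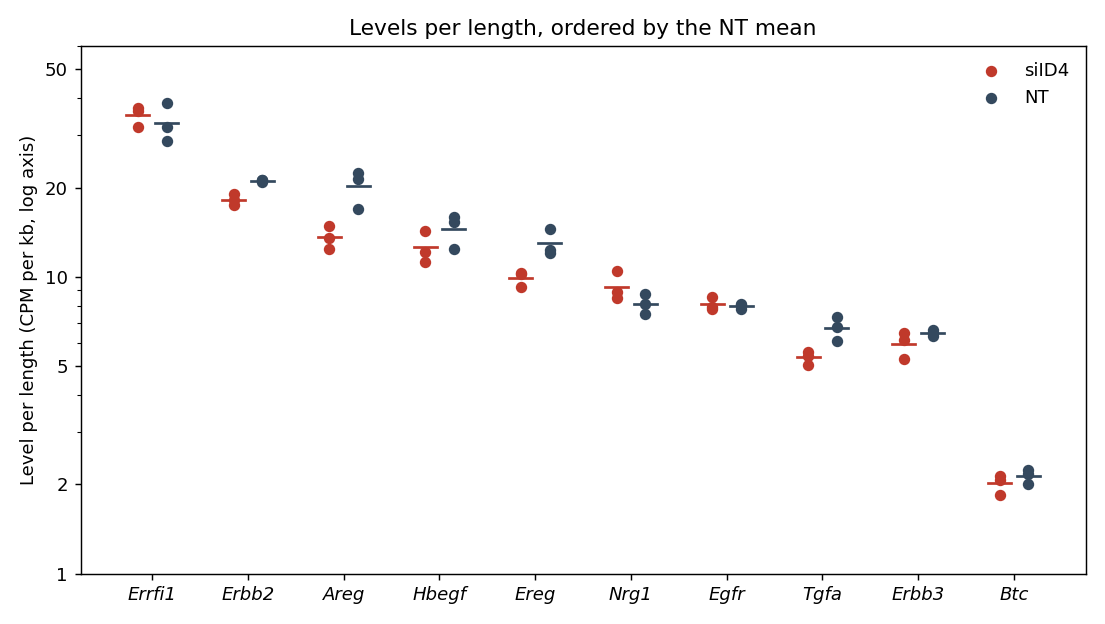
Level per length (CPM per kilobase, log axis) of the 10 genes in each siID4 library (red, left of each pair) and NT library (dark, right), with lines at the means, ordered by the NT mean. Areg lies beside Hbegf in siID4 cells and beside Erbb2 in NT cells.

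Summed per length over the 7 genes of EGFR ligands (Areg, Ereg, Btc, Hbegf, Tgfa, Epgn and Egf), ligand mRNA was at 51.1, 54.8 and 61.1 CPM per kb in siID4 libraries and 61.4, 75.4 and 76.7 CPM per kb in NT libraries. The arms came close to touching, at siID4 replicate 3 and NT replicate 1. The Areg share of that sum was 24.5% ± 0.258 in siID4 and 28.4% ± 0.842 in NT libraries (SD, n = 3 each). The shares of Hbegf were 22.5% ± 0.741 and 20.4% ± 0.242, those of Epgn 21.1% ± 1.33 and 19.5% ± 1.53, and those of Ereg 17.9% ± 1.08 and 18.3% ± 2.00. Of the receptor sum, Erbb2 made up 56.4% ± 0.658 in siID4 and 59.3% ± 0.112 in NT libraries and Egfr 25.1% ± 2.03 and 22.4% ± 0.373. Shares of a sum depend on one another, and none of them was tested.

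Some of these ligand genes are neighbours. Epgn, Ereg, Areg and Btc lie in that order on chromosome 5, within 91027464 to 91402994, with no other protein-coding gene of the annotation between them. Epgn, which encodes epigen, was at 18.3, 19.6 and 24.3 CPM in siID4 libraries and 19.4, 25.8 and 28.4 CPM in NT libraries. The arms overlap (log2 fold change -0.25, interval -0.60 to 0.11, adjusted p = 0.368), each siID4 library was below the NT library of its number, and with the replicate block the adjusted p was 0.00285. From 200 kb before Epgn to 200 kb after Btc, 8 protein-coding genes are annotated, of which 7 were tested. Parm1, the next gene after Btc, 378 kb from the Areg start, rose (log2 fold change 0.51, SE 0.08, adjusted p = 0.00568). Mthfd2l, next to Epgn, had -0.08 (adjusted p = 0.578) and the chemokine gene Cxcl1 -0.68 (adjusted p = 0.0931, and 9.41e-08 with the replicate block). Lower levels were thus called for Ereg and Areg with group only, and for Cxcl1 and Epgn as well with the block. The stretch was chosen by position after the values were seen.

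**Figure D4:**
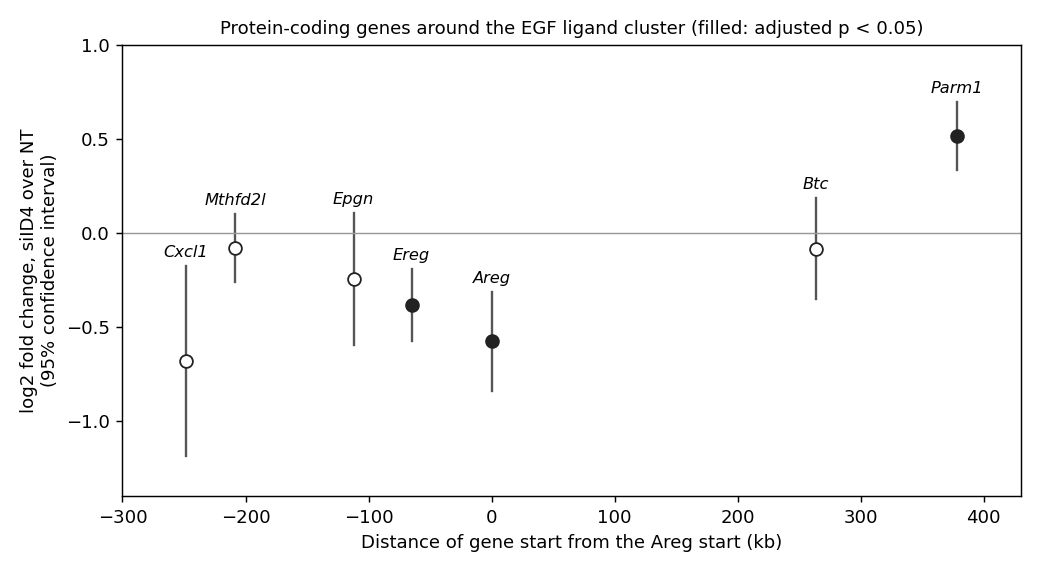
Log2 fold change of siID4 over NT with its 95% confidence interval against the distance of each gene start from the Areg start (kb), for the 7 tested protein-coding genes of the stretch, filled where the adjusted p was under 0.05. Ereg and Areg are lower, Parm1 is higher, and Epgn and Btc have intervals that hold 0.

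The other ligand genes of the family were low. Egf was at 1.55, 1.49 and 1.05 CPM in siID4 libraries and 2.66, 1.51 and 1.41 CPM in NT libraries, with a log2 fold change of -0.44 (interval -1.10 to 0.23, adjusted p = 0.398). Nrg2, a neuregulin, averaged 2.82 ± 0.370 CPM in siID4 and 3.56 ± 1.05 CPM in NT libraries (SD, n = 3 each), with a log2 fold change of -0.34 (adjusted p = 0.407). Nrg4 had at most 1 count in a library. Of the 3 genes tested here, Epgn, Egf and Nrg2, 0 were called by edgeR, by DESeq2 or by limma-voom, and 0 had an unadjusted p under 0.05. Nrg3 was not found by symbol among the genes of the table.

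Genes listed for ligand release or receptor restraint were read against the 9.55% of all genes called. Of 11 genes of ligand shedding (proteases of the ADAM family, their iRhom partners, Bace1 and the inhibitor gene Timp3), 1 rose and 0 fell, with a median log2 fold change of -0.0050. DESeq2 and limma-voom gave the same counts, and at an unadjusted p under 0.05 the counts were 3 higher and 2 lower. The gene called by edgeR was Timp3, which encodes an inhibitor of ADAM17, at 1997 ± 146 CPM in siID4 and 1447 ± 93.8 CPM in NT libraries (SD, n = 3 each, log2 fold change 0.46, adjusted p = 0.00397). The sheddase genes Adam10 and Adam9 had log2 fold changes of -0.08 (adjusted p = 0.334, and 0.0224 with the block) and 0.07 (0.351). Of 11 genes listed by role as restraints of the receptors, 1 rose and 2 fell (median -0.01). Their effect on the receptors in these cells was not tested. Ptprj, a receptor phosphatase, fell by 0.40 on the log2 scale (adjusted p = 0.00352) and Lrig1, which promotes receptor turnover, fell by 0.28 (adjusted p = 0.0159), whereas its relative Lrig3 rose by 0.38 (adjusted p = 0.0176). Lrig1 (adjusted p = 0.0835) and Lrig3 (0.0790) did not pass without siID4 replicate 2, nor did Lrig3 without NT replicate 2 (0.0795). With the replicate block, 4 rose and 3 fell on the shedding list and 3 rose and 4 fell on the restraint list, where 18.3% of all genes were called lower and 17.9% higher.

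Downstream, 20 genes listed by role as following ERK activity were examined, a link that was not tested in these cells. Of these, 17 had a negative log2 fold change, beside 49.8% of all genes tested, and the median was -0.16. In the test 4 fell and 1 rose, where 4.93% of all genes were called lower and 4.62% higher. With DESeq2 6 fell and 1 rose, where 798 of the 13941 genes were called lower and 697 higher. With the block 11 fell and 1 rose, where 18.3% of all genes were called lower and 17.9% higher. The list holds the ETS factor genes Etv4 and Etv5, which fell by 0.36 (adjusted p = 0.00830) and 0.27 (0.0134), the cyclin gene Ccnd1, which fell by 0.33 (0.00657), and the receptor gene Epha2, which fell by 0.27 (0.0165) and is named because it completes the count. Etv4 was at 61.8, 57.5 and 55.7 CPM in siID4 libraries and 77.2, 70.6 and 76.5 CPM in NT libraries. Myc rose by 0.26 (adjusted p = 0.0148). The ERK phosphatase gene Dusp6 had -0.09 (adjusted p = 0.369, and 0.0100 with the block), and Egr1, an early response gene, was at 137, 229 and 131 CPM in siID4 libraries and 162, 293 and 145 CPM in NT libraries, replicate 2 being the highest in both arms (adjusted p = 0.698, and 1.89e-06 with the block). Without siID4 replicate 2, Etv4 (0.0542), Etv5 (0.0651) and Epha2 (0.0976) did not pass, nor did Etv5 (0.0663), Epha2 (0.0645) and Myc (0.0740) without NT replicate 2, or Epha2 without siID4 replicate 1 (0.0517).

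In the kinase cascades themselves the share of genes called with group only was near the 9.55% of all genes. Of 18 RAS-ERK genes 2 fell and 0 rose (median -0.05). Among them Ptpn11, which encodes the phosphatase SHP2 that relays receptor signals to RAS, fell by 0.28 (adjusted p = 0.00485). Without adjustment, at p under 0.05, the RAS-ERK list held 2 higher genes and 3 lower ones. DESeq2 called 1 higher and 2 lower, and limma-voom 0 higher and 2 lower. The replicate block called 4 of this list higher and 6 lower. Over all genes tested the block called 17.9% higher and 18.3% lower. Of 10 PI3K-AKT genes 1 rose and 0 fell (median -0.01). Without adjustment, at p under 0.05, 2 of these were higher and 0 lower. DESeq2 and limma-voom each called 1 higher and 0 lower. The replicate block called 2 of them higher and 2 lower, beside the same block shares over all genes. Pik3r3, a regulatory subunit gene of PI3K, rose by 0.66 (adjusted p = 0.0157, and 0.0669 without siID4 replicate 2). Shc1, an adaptor gene of the RAS branch, and Akt1, a kinase gene of the PI3K branch, did not pass with group only. Shc1 had 0.08 on the log2 scale and Akt1 had -0.09, and both passed with the block, at an adjusted p of 0.0356 for Shc1 and 0.0108 for Akt1.

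**Figure D5:**
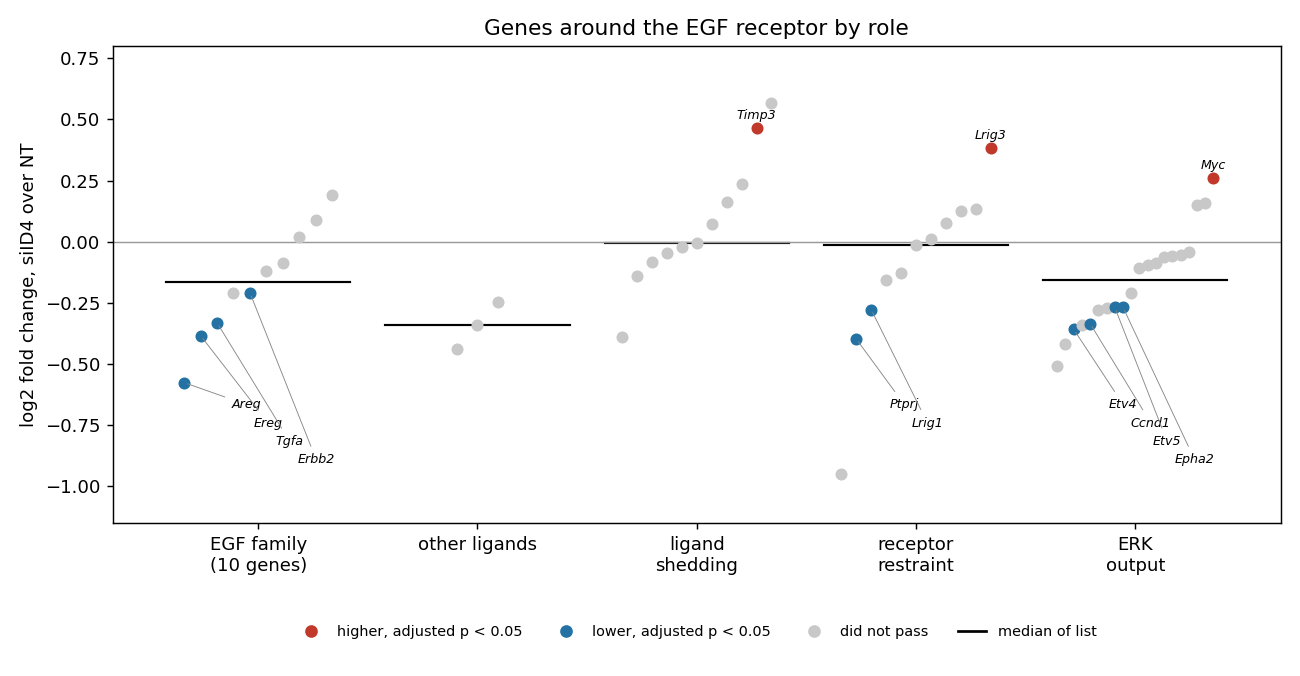
Log2 fold change of siID4 over NT for each tested gene of 5 lists, grouped by role, with called genes in colour and named, and a black line at the median of each list. Called genes lie on both sides of 0 on the restraint and ERK output lists, and the 10 EGF family genes and the ERK output list have medians of -0.16.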

How the data were processed

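Per the labels, poly(A) RNA (1 µg) was sequenced with a strand-marking kit in 3 biological replicates per arm; nothing says that these came from separate cultures, so p-values measure the spread between these libraries. Per the submitters' processing notes cutadapt, STAR and RSEM were used with the build mm10. The authors deposited expected counts (estimated counts per gene), not normalized, with a gene length per gene. Neither the strand option used in counting nor the table's filter is stated in those notes. Between 10.0% and 10.6% of the expected counts in a library were not whole (tolerance 0), and all were rounded. Gene length, in bases, is the authors' deposited value.

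The main test was edgeR 4.0.16's quasi-likelihood test in R 4.3.3 with robust dispersions, filterByExpr, TMM and group only, Benjamini-Hochberg adjusted over 13941 genes and called under 0.05. SEs and 95% intervals derive from its F statistic. Differences within replicate numbers use log2(CPM + 0.5). Alternatives were DESeq2 1.42.0, limma 3.58.1 (voom), other scalings and filters, unrounded counts, a replicate block and fits without one library. Same-numbered libraries deviated together from their arm means (r across genes 0.51, 0.16 and 0.45), most weakly for number 2. Between siID4 and NT libraries of different number r was at most -0.0066. Deviations within an arm sum to 0, so these values depend on one another. The labels do not say whether the numbers pair the libraries, and such pairing was not tested. Every pair of libraries within an arm differed by more than counting noise (mean chi-square 5.09 to 13.6 per gene).

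The members and gene lists were chosen with earlier results of these data known. Named by rule were the members, Id4, the other ligands and receptor, and per list up to 4 called genes of smallest adjusted p and 2 uncalled ones of highest level; a few genes of the kinase cascades that it names are not reported here. Coordinates are from GENCODE M21 (GRCm38).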

Additional observations from a re-analysis of the deposited data

How the results depend on the processing

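With the replicate number as a block 5038 genes changed, 2545 lower and 2493 higher, against 1331, 687 and 644 without it. Of the EGF family genes, 5 then fell and 1 rose, and the block lost no call of a member. Without one library the number of genes changed was between 445 and 1351 (lower 224 to 665, higher 221 to 686), and the number of EGF family genes changed was between 0 and 4, all lower. Removing a library lowers the residual degrees of freedom by construction. With library totals in place of TMM 564 genes were lower and 829 higher, the median log2 fold change of all genes being 0.03, and Tgfa lost its call. Other scalings, filters, DESeq2 and unrounded counts called the same 4 members, and limma-voom called 3 of them. Over 15 alternatives Areg lay between -0.69 and -0.49, Ereg between -0.43 and -0.29, Tgfa between -0.40 and -0.26 and Erbb2 between -0.24 and -0.18 on the log2 scale. Among genes that did not pass, fits without one library gave both signs for Egfr (-0.023 to 0.048), Errfi1 (-0.0045 to 0.21) and Egr1 (-0.57 to 0.11). The order of mean levels per length over all libraries was the same without TMM. Depth limits Btc, Egf, Nrg2, Nrg4 and Erbb4 most.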
